A study of Mus musculus with 12 samples.

Results

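Sphingolipid and ceramide metabolism was followed through 33 mouse genes, taken from the deposited expression table by matching Ensembl identifiers to the listed symbols, out of 35275 genes in the table. All 33 were found. The genes were grouped by role into the first step of synthesis and its brakes, ceramide synthesis, sphingomyelin turnover, glucosylceramide turnover, ceramidases, and the enzymes of phosphorylated sphingolipids. Kdsr, which acts on the product of the first step, was placed with the first-step genes.

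The study sequenced whole-liver RNA from wild-type (WT) male mice and from male mice with a whole-body knockout of Pctp (Pctp-/-), the gene for phosphatidylcholine transfer protein (PC-TP). Mice of each genotype received either chow or a diet lacking methionine and choline (MCD), which fattens and injures the liver, and each of the 4 groups held 3 mice with 1 library per mouse. Strain, age and time on the diet are not given in the sources used here, and because PC-TP was missing from every tissue, liver RNA cannot separate effects that arise in the liver from effects of other organs. The comparison of Pctp-/- with WT asked how livers without PC-TP differ on each diet, and that of MCD with chow asked how the diet acted in each genotype.

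Uniquely mapped reads numbered 30486576 to 55179468 in the chow libraries and 33463498 to 46246856 in the MCD libraries. The targeted gene matched its labels: Pctp was at 1.21 to 2.65 FPKM in WT on chow and 3.61 to 7.90 in WT on MCD, against 0.330 to 0.566 and 0.156 to 0.329 in Pctp-/- mice. FPKM is the number of fragments scaled to transcript length and to the mapped fragments of the library, so levels can be compared between genes. Of 8 mapping and quality percentages, 7 did not overlap between chow and MCD libraries, while 0 separated the genotypes on either diet. Uniquely mapped reads, for example, made up 77.59 to 79.41% on chow and 85.66 to 87.55% on MCD, while reads had a GC content of 49.8 to 51.2% for chow and 48.4 to 49.2% for MCD. Diet and these differences between the libraries cannot be told apart, and no label names a sequencing run. The summed FPKM of 8 hepatocyte markers, between 47282 and 85512 in every library, matched the labelled tissue.

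Sphingolipids are built on a long-chain amino alcohol that serine palmitoyltransferase makes from serine and palmitoyl-CoA, and ceramide, made by acylating and desaturating that base, is the hub of the pathway. Ceramide can receive the phosphocholine head of phosphatidylcholine to become sphingomyelin, can be glycosylated, or can be cut by ceramidases to sphingosine, which kinases turn into the signalling lipid sphingosine 1-phosphate. The liver is a main source of ceramide and sphingomyelin for lipoproteins, and phosphatidylcholine, whose supply falls without methionine and choline, is both the cargo of PC-TP and the donor of the sphingomyelin head group.

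Differences are given on the log2(FPKM + 1) scale, and a gene is called higher or lower where the Benjamini-Hochberg adjusted p of limma over all 12466 tested genes was under 0.05. A gene was tested where its mean FPKM over the 12 libraries was at least 0.5, which 27 of the 33 members passed. The other 6 were Cers1, at 0 to 0.0616 FPKM, Cers4, at 0.278 to 0.613, Degs2, at 0.125 to 0.807, Sphk1, at 0.0603 to 0.174, Sgpp2, at 0 to 0.129, and Acer1, listed at 0 in all 12 libraries.

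The promoters of 4 members that passed the threshold in the same direction in both genotypes are shown first, chosen because a single RefSeq start coincided with the start of the GENCODE gene. Sptlc2, Ormdl1 and Cerk rose on MCD and Smpd4 fell. Each line gives the 250 bases before the start on GRCm38.p6, read from RefSeq 5′ to 3′ on the strand of the gene, with capitals marking the CCAAT box, spelled by its own name, and the GC box, spelled GGGCGG, each searched on both strands.
Sptlc2, chr12:87388356-87388605, minus strand: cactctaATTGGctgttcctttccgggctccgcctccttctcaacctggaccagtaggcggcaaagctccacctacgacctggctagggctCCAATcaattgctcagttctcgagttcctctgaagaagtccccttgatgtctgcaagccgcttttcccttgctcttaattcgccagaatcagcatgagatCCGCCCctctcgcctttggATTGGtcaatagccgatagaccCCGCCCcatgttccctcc
Ormdl1, chr1:53296845-53297094, plus strand: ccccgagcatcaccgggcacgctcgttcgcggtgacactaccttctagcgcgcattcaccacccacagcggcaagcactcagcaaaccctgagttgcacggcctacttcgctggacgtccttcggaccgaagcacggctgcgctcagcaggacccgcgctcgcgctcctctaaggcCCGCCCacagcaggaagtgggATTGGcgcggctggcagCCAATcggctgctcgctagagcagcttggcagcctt
Cerk, chr15:86186142-86186391, minus strand: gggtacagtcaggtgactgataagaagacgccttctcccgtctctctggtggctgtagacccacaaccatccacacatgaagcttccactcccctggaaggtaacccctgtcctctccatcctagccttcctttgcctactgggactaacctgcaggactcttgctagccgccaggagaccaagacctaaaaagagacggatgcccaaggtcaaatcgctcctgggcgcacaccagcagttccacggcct
Smpd4, chr16:17619104-17619353, plus strand: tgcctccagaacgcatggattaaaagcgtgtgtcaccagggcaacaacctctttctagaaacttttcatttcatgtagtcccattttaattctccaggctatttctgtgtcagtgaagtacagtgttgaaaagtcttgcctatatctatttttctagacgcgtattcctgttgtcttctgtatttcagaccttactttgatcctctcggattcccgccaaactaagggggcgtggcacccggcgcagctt

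The window of Sptlc2 held 3 CCAAT boxes and 2 GC boxes, and that of Ormdl1 held 2 and 1, whereas the windows of Cerk and Smpd4 held 0 of either. The palindromic E-box CACGTG was also searched and was in 0 of these 4 windows. RefSeq promoters were found for 31 of the 33 members, with 47 windows in all. CCAAT was in 14 of the 47 (29.8%) against 34.9% of 11854 windows of tested genes, and GGGCGG was in 27 (57.4%) against 56.1%. The E-box was in 8 of the 47 windows (17.02%) against 8.25%. Over all 32851 windows 33.8% held the CCAAT box, 32.7% the GC box and 6.02% the E-box, and the member windows include several starts of the same gene.

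On the MCD diet, most of the genes that make ceramide and several that take sphingomyelin and ceramide apart rose in WT livers. Of the 27 tested members, 16 were higher and 4 lower on MCD than on chow (74.1%), where 57.0% of all tested genes were called, 34.5% higher and 22.5% lower. By role, the higher included 5 of the 6 genes grouped with the first step, namely Sptlc1, Sptlc2, the brakes Ormdl1 and Ormdl3, and Kdsr. The others were 3 of 4 tested genes of ceramide synthesis, 3 of 7 sphingomyelin genes, 3 of 4 ceramidases and 2 of 4 genes of phosphorylated sphingolipids. The 4 lower were Smpd2, Smpd4, Gba2 and Asah2. Groups did not overlap for the same number of members, 16 higher and 4 lower, against 63.7% of all tested genes, 37.7% higher and 26.0% lower. The median difference of the members was 0.44 against 0.11 over all tested genes. In Pctp-/- livers, 10 members were higher and 5 lower (55.6%), where 50.3% of all tested genes were called, 26.0% higher and 24.4% lower, and the medians were 0.24 and 0.04. There, 15 members were higher and 6 lower without overlap, against 59.7% of all tested genes, 32.3% higher and 27.5% lower. The members were chosen with earlier results of these data known, so these shares are not read as a result about the pathway. Whether the members as a set differ from other genes was not tested. In Pctp-/-, quantile normalization brought the calls to 18 of 27, with 6589 of all 12466 tested genes called. A correction for GC content and transcript length brought them to 12 of 27, with 5129 of 12401 tested genes called. Another scaling between libraries moved the median of all genes in WT from 0.11 to 0.011 with quantile normalization and -0.0013 with median-of-ratios scaling. In WT, 20 members were called under either, with 7184 and 7073 of all tested genes called. In bulk tissue, fewer cells of a type and less RNA per cell cannot be told apart.

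The same direction in both genotypes was passed by 12 members, which is 60.0% of those called in WT and 80.0% of those called in Pctp-/-. Over all tested genes the corresponding shares, in the same direction, were 71.4% and 80.9%. The 12 were Sptlc2, Ormdl1, Kdsr, Degs1, Sgms1, Smpd3, Asah1, Acer3 and Cerk, which rose, and Smpd4, Gba2 and Asah2, which fell. A further 8 members were called in WT alone and 3 (Cers6, Sphk2 and Sgpp1) in Pctp-/- alone, but the difference between the genotypes' diet effects passed the threshold for 0 of the 27.

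**Figure D1:**
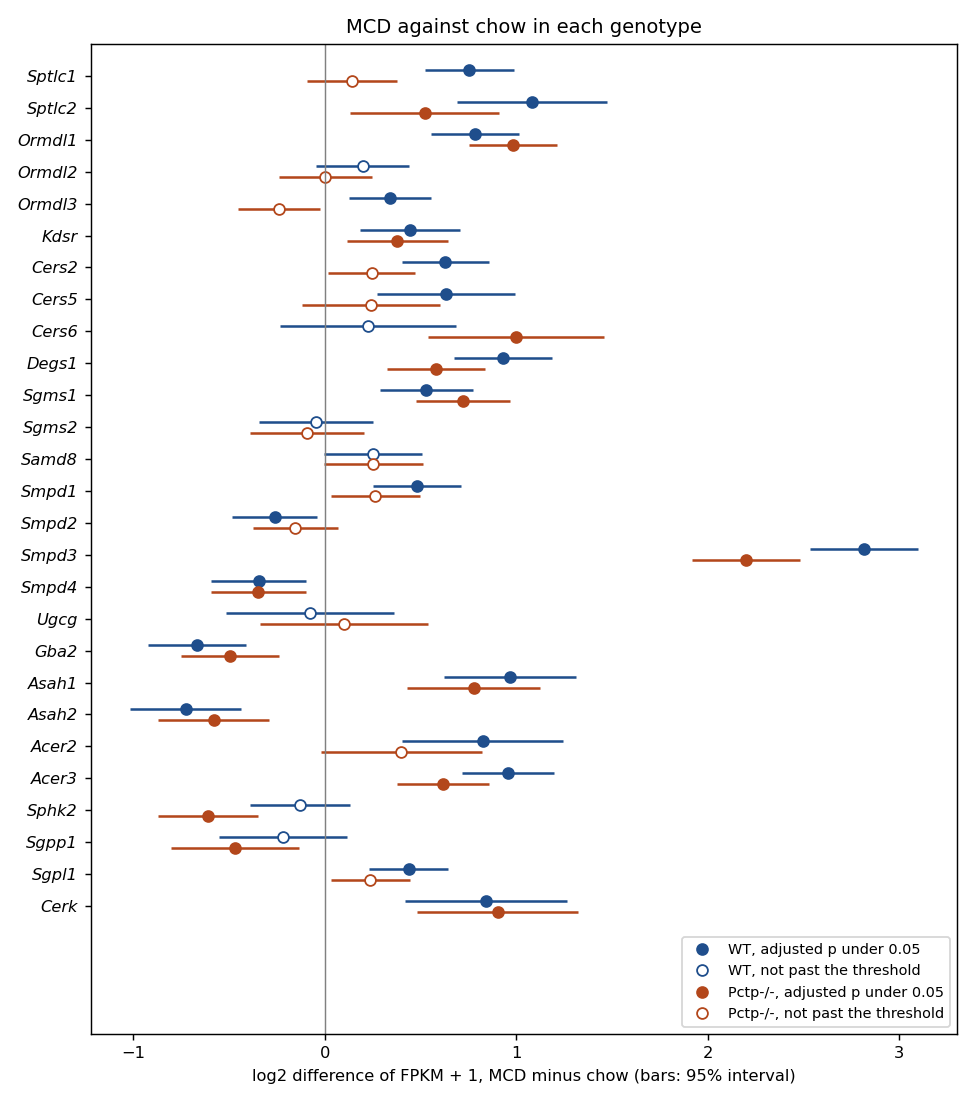
MCD minus chow difference on the log2(FPKM + 1) scale (x axis) for each of the 27 tested members (rows, ordered by role), in WT (blue) and Pctp-/- (red), with 95% intervals as bars and filled points for adjusted p under 0.05. Smpd3 stands far to the right in both genotypes at 2.82 and 2.20, and every other member lies between -0.73 and 1.08.

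The first and rate-limiting step is carried out by serine palmitoyltransferase, whose core subunits are SPTLC1 and SPTLC2. Gene positions are those of GENCODE M21 on GRCm38. Sptlc2 (chr12:87305058-87388355, minus strand) was at 2.40, 1.66 and 1.83 FPKM in the 3 WT livers on chow, 2.76, 1.98 and 2.21 in Pctp-/- on chow, 7.62, 4.48 and 4.14 in WT on MCD and 3.88, 3.62 and 3.71 in Pctp-/- on MCD. Every MCD liver was above every chow liver, and the first WT MCD library stood well above the other two. The rise was 1.08 in WT (SE 0.18, adjusted p = 0.000293) and 0.52 in Pctp-/- (SE 0.18, adjusted p = 0.0284). Without that WT library the WT rise was 0.85 (adjusted p = 0.000434). Sptlc2 in Pctp-/- lost its call with no filter on low values and when GC content and transcript length were corrected for, the latter at 0.39 (adjusted p = 0.0625). It was also lost without any 1 of 5 of the 6 Pctp-/- libraries, at 0.45 to 0.54 with adjusted p of 0.0571 to 0.0967, the first chow library being the exception.

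Sptlc1 (chr13:53332748-53377397, minus strand), the partner subunit, read 13.2, 10.8 and 11.5 FPKM in WT on chow and 22.9, 21.1 and 18.2 in WT on MCD. In Pctp-/- mice it read 14.2, 12.7 and 13.4 on chow and 15.9, 13.7 and 15.3 on MCD. The WT groups did not overlap, with a mean 74.8% higher on MCD (log2 0.76, SE 0.11, adjusted p = 9.92e-05). The Pctp-/- groups overlapped, at 0.14 with a 95% interval of -0.09 to 0.38 and an adjusted p of 0.295, a difference that was -0.0024 after the GC and length correction.

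The ORMDL proteins bind serine palmitoyltransferase in the endoplasmic reticulum and restrain it when ceramide is plentiful. Ormdl1 (chr1:53297095-53310309, plus strand) was at 4.22, 4.59 and 5.20 FPKM in WT and 4.18, 3.87 and 4.41 in Pctp-/- on chow, and at 7.92, 8.48 and 9.96 in WT and 9.34, 8.77 and 9.46 in Pctp-/- on MCD. It rose in both genotypes without overlap, by 0.79 in WT (SE 0.11, adjusted p = 6.28e-05) and 0.98 in Pctp-/- (SE 0.11, adjusted p = 1.5e-05). Of its 75-base windows, 7.27% also lie in the transcript of the overlapping gene Gm28778.

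Ormdl3 (chr11:98581256-98587368, minus strand), the most abundant of the first-step genes, followed another order. Its FPKM was 42.0, 40.6 and 41.2 in WT on chow, 56.9, 50.1 and 58.5 in Pctp-/- on chow, 46.3, 59.5 and 52.5 in WT on MCD and 44.8, 46.1 and 48.6 in Pctp-/- on MCD. WT on chow was the low group, below all 9 other livers, and the Pctp-/- livers on MCD were all below those on chow. Ormdl3 was called higher on MCD in WT (0.34, SE 0.10, adjusted p = 0.0110), a call lost under median-of-ratios scaling at 0.20 (adjusted p = 0.154) and without the second WT MCD library at 0.25 (adjusted p = 0.0566). In Pctp-/- it did not pass, at -0.24 (95% interval -0.45 to -0.02, adjusted p = 0.0613), and that value turned to 0.11 with the GC and length correction. Ormdl3 was called lower in Pctp-/- without the second Pctp-/- chow library, and without the first or the second WT MCD library. Ormdl2, at 7.78 to 10.6 FPKM over all libraries, was not called on either diet contrast (0.20 in WT and 0.0015 in Pctp-/-). With the GC and length correction it read -0.20 (adjusted p = 0.191) in WT and was called lower in Pctp-/-, at -0.37 (adjusted p = 0.0297), and 59.2% of its windows are shared with Dnajc14.

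Within the ORMDL family, Ormdl3 supplied 76.1% ± 0.480 (SD, n = 3) of the summed FPKM in WT on chow, 80.5% ± 1.74 in Pctp-/- on chow, 74.0% ± 1.43 in WT on MCD and 71.7% ± 0.594 in Pctp-/- on MCD. The share of Ormdl1 was 8.62% ± 0.991 in WT on chow and 12.4% ± 1.55 in WT on MCD. In Pctp-/- it was 6.06% ± 0.0971 on chow and 14.2% ± 0.718 on MCD.

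Kdsr, which reduces the first product of the pathway to dihydrosphingosine, rose by 0.44 in WT and 0.38 in Pctp-/- (adjusted p = 0.00763 and 0.0203). Its levels ran from 4.51 to 6.45 FPKM on chow and from 6.88 to 8.83 on MCD. Both Kdsr calls were lost with the GC and length correction, at 0.24 (adjusted p = 0.111) and 0.10 (adjusted p = 0.540). In Pctp-/- the Kdsr call was also lost without the first or second chow library or the second MCD library, at 0.28 to 0.36 with adjusted p of 0.0579 to 0.0816.

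**Figure D2:**
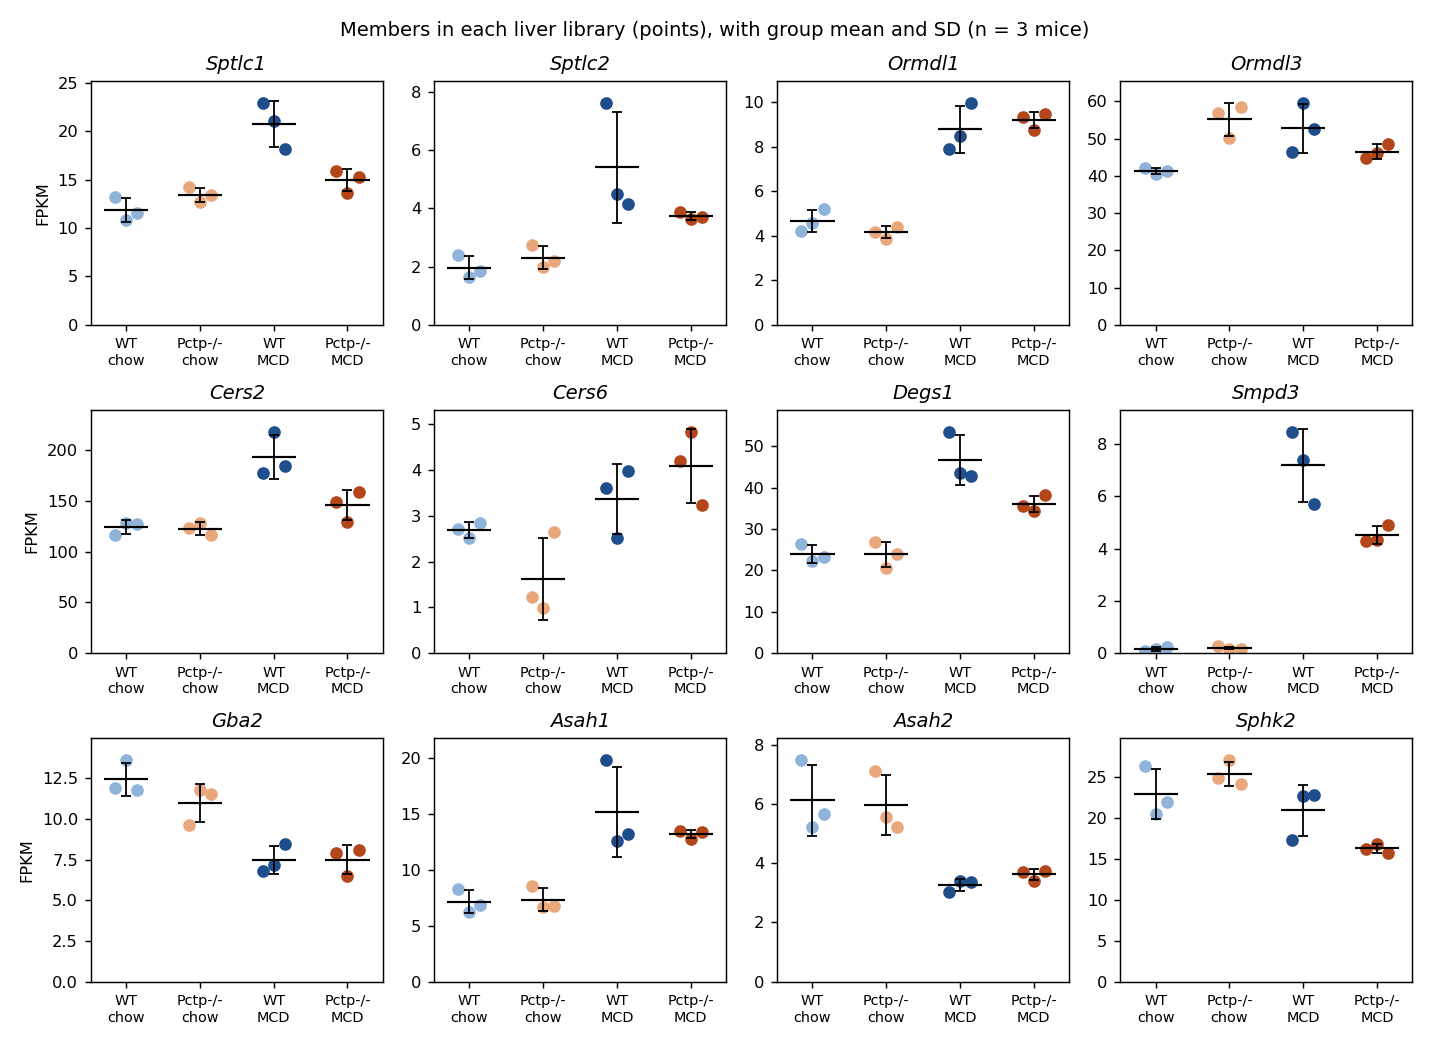
FPKM (y axis, linear from 0) of 12 members in each of the 12 livers, with 1 point per mouse, horizontal lines at group means and bars of 1 SD (n = 3). Smpd3 is near 0 on chow and between 4.30 and 8.48 on MCD, Ormdl3 is lowest in WT on chow, and the first WT MCD library is the highest of its group for Sptlc2 (7.62) and Asah1 (19.8).

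Ceramide synthases add a fatty acid to the sphingoid base, and each has its own preference for chain length. Cers2, which makes the very-long-chain ceramides typical of liver, was the most abundant of the 33 members (chr3:95314791-95323599, plus strand). It was at 116, 128 and 127 FPKM in WT and 124, 128 and 116 in Pctp-/- on chow, against 178, 218 and 184 in WT and 149, 129 and 159 in Pctp-/- on MCD. The WT MCD livers stood above all others, and the Pctp-/- MCD livers lay between. The mean was 55.6% higher on MCD in WT (0.63, SE 0.10, adjusted p = 0.000293) and 19.0% higher in Pctp-/-, where it did not pass (0.24, SE 0.10, adjusted p = 0.0678). Across groups Cers2 supplied 96.0 to 97.6% of the summed FPKM of the 5 ceramide synthases listed, by group mean.

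Cers5 and Cers6 make ceramides with shorter, palmitoyl chains. Cers5 read 0.954, 0.485 and 0.906 FPKM in WT on chow and 2.34, 1.497 and 1.48 on MCD, a rise of 0.63 (SE 0.17, adjusted p = 0.00597). In Pctp-/- it read 0.716, 1.04 and 1.17 on chow and 1.46, 1.56 and 0.994 on MCD, where the groups overlapped (0.24, SE 0.17, adjusted p = 0.247). Cers6 (chr2:68861441-69114282, plus strand) showed the opposite split. Its FPKM was 2.72, 2.51 and 2.85 in WT on chow and 3.59, 2.50 and 3.97 in WT on MCD, against 1.22, 0.986 and 2.63 in Pctp-/- on chow and 4.19, 4.83 and 3.23 in Pctp-/- on MCD. Cers6 rose by 1.00 in Pctp-/- (SE 0.21, adjusted p = 0.00200), with 0.22 in WT (95% interval -0.24 to 0.69, adjusted p = 0.383). The third Pctp-/- chow library, at 2.63, stood with the WT livers, and the other Pctp-/- chow libraries were at 1.22 and 0.986.

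Degs1 (chr1:182275772-182282804, minus strand) encodes the desaturase that turns dihydroceramide into ceramide. It was at 26.3, 22.1 and 23.3 FPKM in WT and 26.8, 20.6 and 24.0 in Pctp-/- on chow, and rose to 53.5, 43.6 and 42.8 in WT and 35.4, 34.4 and 38.1 in Pctp-/- on MCD. No chow liver reached the level of any MCD liver. The mean rose by 94.98% in WT (0.93, SE 0.12, adjusted p = 3.94e-05) and by 51.0% in Pctp-/- (0.58, SE 0.12, adjusted p = 0.00146), and both calls held in all 23 alternatives that set no minimum fold. Degs2, below the filter, was at 0.164 to 0.211 FPKM in WT on chow and 0.379 to 0.807 in WT on MCD, and was called higher there in the fit with no filter.

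Sphingomyelin is made by sphingomyelin synthases and broken down by sphingomyelinases. The steepest change of any tested member was in Smpd3 (chr8:106252548-106337988, minus strand). It encodes neutral sphingomyelinase 2, a membrane enzyme that releases ceramide from sphingomyelin. Its FPKM was 0.0817, 0.145 and 0.238 in WT and 0.261, 0.178 and 0.161 in Pctp-/- on chow. On MCD it was 8.48, 7.41 and 5.71 in WT and 4.30, 4.35 and 4.90 in Pctp-/-. Even the lowest MCD liver was 24.0 times the highest chow liver in WT and 16.5 times in Pctp-/-. Group means of FPKM differed 46.5-fold in WT and 22.6-fold in Pctp-/-, which the pseudocount of 1 compresses to 2.82 (SE 0.13, adjusted p = 2.74e-08) and 2.20 (SE 0.13, adjusted p = 1.82e-07). With a pseudocount of 0.1 the Smpd3 differences were 4.87 and 3.96.

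Smpd1, the acid sphingomyelinase of lysosomes, was the most abundant gene of the sphingomyelin group. It was at 19.8, 21.1 and 16.5 FPKM in WT on chow and 25.9, 27.5 and 27.4 on MCD, a rise of 0.48 (SE 0.11, adjusted p = 0.00214). In Pctp-/- the values were 19.3, 20.1 and 20.1 on chow against 25.3, 21.1 and 25.9 on MCD, all MCD livers being above the chow livers, but the difference missed the threshold (0.26, SE 0.11, adjusted p = 0.0546). Sgms1, the Golgi sphingomyelin synthase, rose in both genotypes, from 4.28, 3.22 and 2.92 to 5.56, 5.23 and 5.44 in WT (0.53, SE 0.11, adjusted p = 0.00165) and from 3.05, 2.76 and 2.86 to 5.39, 5.64 and 5.21 in Pctp-/- (0.72, SE 0.11, adjusted p = 0.000243). Sgms2, the synthase of the plasma membrane, was higher than Sgms1 in every library at 8.56 to 13.2 FPKM and was not called on either diet contrast. Samd8, which makes the ethanolamine analogue of sphingomyelin, was not called either, at 6.20 to 9.91 FPKM.

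The remaining sphingomyelinases had lower values on MCD. Smpd4 fell by 0.34 in WT and fell by 0.35 in Pctp-/- (adjusted p = 0.0212 and 0.0233), from 3.51 to 4.33 FPKM on chow to 2.28 to 3.25 on MCD. Smpd2 fell by 0.26 in WT (adjusted p = 0.0438), a call that stood in 11 of 23 alternatives with no minimum fold, and read -0.15 in Pctp-/- (adjusted p = 0.226), where it too turned with the GC and length correction, to 0.15. With GC content and length corrected for, Smpd4 read -0.22 (adjusted p = 0.147) in WT and -0.27 (adjusted p = 0.0983) in Pctp-/-, and Smpd2 in WT turned to 0.032 (adjusted p = 0.819). Leaving out any WT library ended the call of Smpd2, with adjusted p of 0.0570 to 0.104. That of Smpd4 in WT was lost without the second chow or the third MCD library (adjusted p = 0.0861 and 0.0542), and in Pctp-/- without the second or the third chow or the first or the second MCD library, at 0.0502 to 0.107. Of the windows of Smpd2, 11.98% are shared with Mical1 on the opposite strand.

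As a share of the summed FPKM of the 4 sphingomyelinases, Smpd3 went from 0.502% ± 0.289 to 16.4% ± 2.95 (SD, n = 3) in WT and from 0.649% ± 0.205 to 11.96% ± 0.741 in Pctp-/-. Smpd1 kept 60.6 to 63.8% in the means of all 4 groups.

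**Figure D3:**
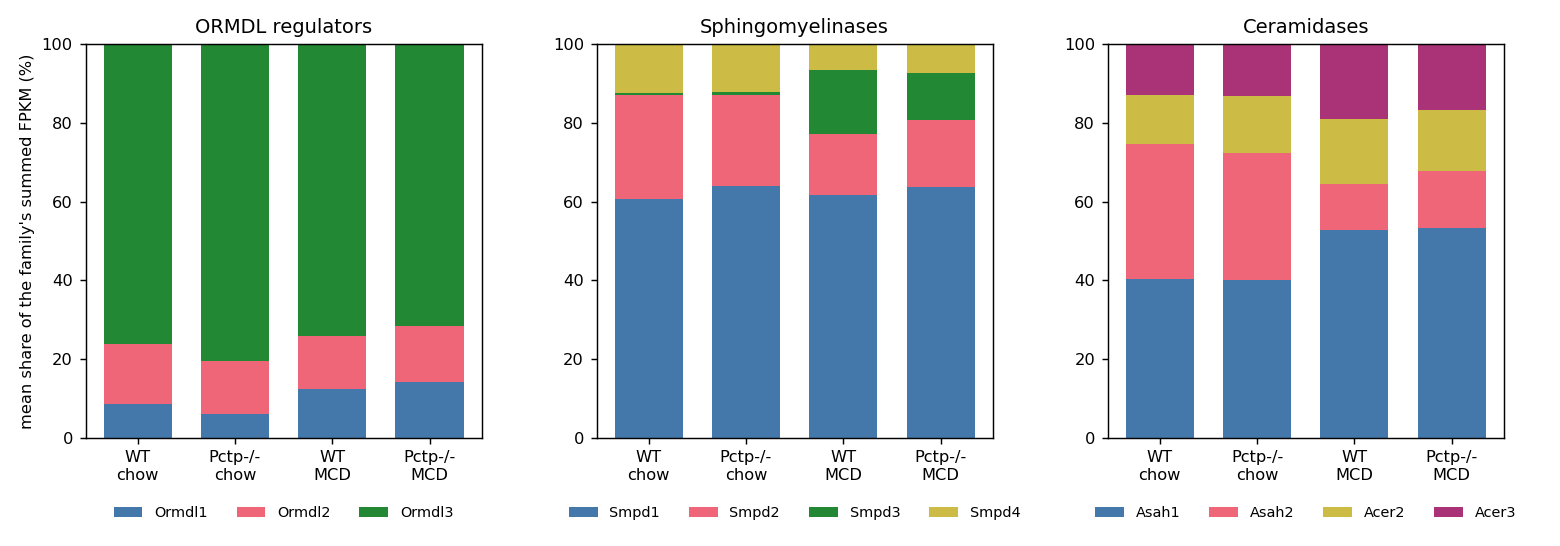
Mean share (y axis, percent) of the summed FPKM of each family held by each gene in the 4 groups (n = 3 livers each), for the ORMDL regulators, the sphingomyelinases and the ceramidases. Smpd3 goes from under 1% on chow to 16.4% and 11.96% on MCD, and Asah2 from 34.3% and 32.4% to 11.7% and 14.6%.

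Ugcg adds glucose to ceramide, and Gba2 removes it outside the lysosome. Gba2 (chr4:43566928-43578873, minus strand) read 11.9, 13.6 and 11.8 FPKM in WT and 9.62, 11.8 and 11.5 in Pctp-/- on chow, and 6.80, 7.18 and 8.47 in WT and 7.90, 6.49 and 8.11 in Pctp-/- on MCD. It fell in both genotypes without overlap, by 0.67 in WT (SE 0.12, adjusted p = 0.000488) and fell by 0.49 in Pctp-/- (SE 0.12, adjusted p = 0.00424). Both calls were lost with the GC and length correction, at -0.29 (adjusted p = 0.0592) and -0.07 (adjusted p = 0.685), and the GC content of its longest transcript, 56.5%, is above that of 85.3% of the tested genes. Ugcg varied within each group, from 5.27 to 9.46 FPKM, and was not called on either diet contrast.

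The ceramidases, which cut ceramide into sphingosine and a fatty acid, moved apart. Asah1, the acid ceramidase of lysosomes (chr8:41340197-41374773, minus strand), was at 8.32, 6.28 and 6.90 FPKM in WT and 8.53, 6.68 and 6.81 in Pctp-/- on chow, against 19.8, 12.6 and 13.2 in WT and 13.5, 12.8 and 13.4 in Pctp-/- on MCD. It rose in both genotypes, by 0.97 (SE 0.16, adjusted p = 0.000273) and 0.78 (SE 0.16, adjusted p = 0.00156), and by 0.77 in WT without the first MCD library, which was high.

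Asah2, the neutral ceramidase (chr19:31982597-32108211, minus strand), went the other way. Its FPKM was 7.48, 5.22 and 5.66 in WT and 7.10, 5.55 and 5.21 in Pctp-/- on chow, and 3.03, 3.40 and 3.38 in WT and 3.72, 3.41 and 3.74 in Pctp-/- on MCD. All 6 MCD livers were below all 6 chow livers. The mean fell by 46.6% in WT (-0.73, SE 0.13, adjusted p = 0.000622) and fell by 39.2% in Pctp-/- (-0.58, SE 0.13, adjusted p = 0.00335). Both calls stood in all 22 alternatives that tested the gene and set no minimum fold, and the GC and length correction moved them to -0.88 and -0.84.

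Of the alkaline ceramidases, Acer3 rose in both genotypes. It read 2.80, 2.05 and 2.11 FPKM in WT on chow and 5.97, 5.24 and 5.04 on MCD (0.96, SE 0.11, adjusted p = 2.06e-05), and 2.44, 2.17 and 2.57 on chow against 4.23, 4.09 and 4.25 on MCD in Pctp-/- (0.62, SE 0.11, adjusted p = 0.000653). Acer2 rose in WT, from 2.90, 1.22 and 2.64 to 4.77, 3.69 and 5.50 (0.82, SE 0.19, adjusted p = 0.00313). In Pctp-/- Acer2 read 2.51, 2.33 and 3.10 on chow and 3.96, 3.72 and 3.69 on MCD, without overlap but short of the threshold (0.40, SE 0.19, adjusted p = 0.105). Asah1 supplied 40.4% of the summed ceramidase FPKM in WT on chow and 52.7% on MCD, while Asah2 went from 34.3% to 11.7%.

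Sphingosine is phosphorylated by sphingosine kinases, and its phosphate is removed by Sgpp1 or cleaved for good by the lyase Sgpl1. Sphk2 (chr7:45709467-45718002, minus strand), the main kinase here, was at 26.3, 20.5 and 21.9 FPKM in WT and 24.9, 27.0 and 24.1 in Pctp-/- on chow, and at 17.3, 22.6 and 22.7 in WT and 16.1, 16.8 and 15.7 in Pctp-/- on MCD. The Pctp-/- MCD livers were below all other livers. Sphk2 fell by 0.61 in Pctp-/- (SE 0.12, adjusted p = 0.00120), with -0.13 in WT (95% interval -0.39 to 0.13, adjusted p = 0.378). With the GC and length correction the values became -0.02 (adjusted p = 0.909) in Pctp-/- and 0.39 (adjusted p = 0.0123) in WT, so the call in Pctp-/- was lost and the direction in WT turned. The transcript has a GC content of 58.6%, and 16.4% of its windows are shared with Dbp and Rpl18 on the opposite strand, whose reads cannot be told apart from its own where strand was not used in counting.

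Sgpl1, the most abundant gene of this group, read 25.6, 20.3 and 21.8 FPKM in WT on chow and 29.998, 32.8 and 29.7 on MCD, a rise of 0.44 (SE 0.09, adjusted p = 0.00186). In Pctp-/- it read 25.6, 24.0 and 24.2 on chow against 29.2, 27.9 and 30.6 on MCD, again without overlap, at 0.24 (adjusted p = 0.0542). Sgpp1 fell by 0.47 in Pctp-/- (adjusted p = 0.0230), to 18.1 to 19.2 FPKM from 22.7 to 28.5, and read -0.22 in WT (adjusted p = 0.241). The Sgpp1 call was lost without the first or second Pctp-/- library of either diet, at -0.47 to -0.41 with adjusted p of 0.0545 to 0.0752. Cerk, which phosphorylates ceramide itself, was scarce on chow at 0.717, 0.496 and 0.571 FPKM in WT and 0.726, 0.321 and 0.842 in Pctp-/-. On MCD it rose to 3.04, 1.37 and 1.43 in WT (0.84, SE 0.19, adjusted p = 0.00276) and 2.20, 1.97 and 1.89 in Pctp-/- (0.90, SE 0.19, adjusted p = 0.00219). Without the first WT MCD library, the highest, the rise of Cerk in WT was 0.59 (adjusted p = 0.00608).

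Markers of some other liver cells moved with the diet as well. Of all tested genes, 34.5% were called higher on MCD in WT and 26.0% in Pctp-/-. Of 10 macrophage and Kupffer cell markers, 9 were called higher on MCD in WT and 6 in Pctp-/-, and none of the 10 was at 0 throughout a group. Their summed FPKM was 74.5 to 124 in WT and 64.9 to 175 in Pctp-/- on chow, and 289 to 552 and 299.9 to 369 on MCD. The neutrophil genes S100a8 and S100a9 rose in both genotypes, although Ly6g was at 0 in every liver of 3 of the 4 groups and Mpo in every WT liver. Of 8 stellate cell and fibroblast markers, 3 rose in WT and 2 in Pctp-/-, near the shares of all tested genes. Of 6 endothelial markers, 2 rose in WT and 0 in Pctp-/-. Of 4 tested cholangiocyte markers, 1 rose in WT and 1 fell in Pctp-/-, and 0 of 2 tested lymphocyte markers were called. Of 8 hepatocyte markers, 3 rose and 2 fell in WT, and 3 rose and 3 fell in Pctp-/-. Hepatocyte sums were 47282 to 53322 in WT and 51219 to 53037 in Pctp-/- on chow, and 63793 to 72121 and 77834 to 85512 on MCD. The first WT MCD library, the highest of its group for Sptlc2, Asah1 and Cerk, also had the highest macrophage (552), stellate cell (53.4) and cell division (6.73) marker sums. Among the other members called higher on MCD in WT, it was the highest of its group for Sptlc1, Kdsr, Cers5, Degs1, Sgms1, Smpd3 and Acer3. It was the lowest for Cers2, Ormdl1, Ormdl3 and Smpd1, and the middle one for Acer2 and Sgpl1. The part of these cells in the members' differences was not tested.

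**Figure D4:**
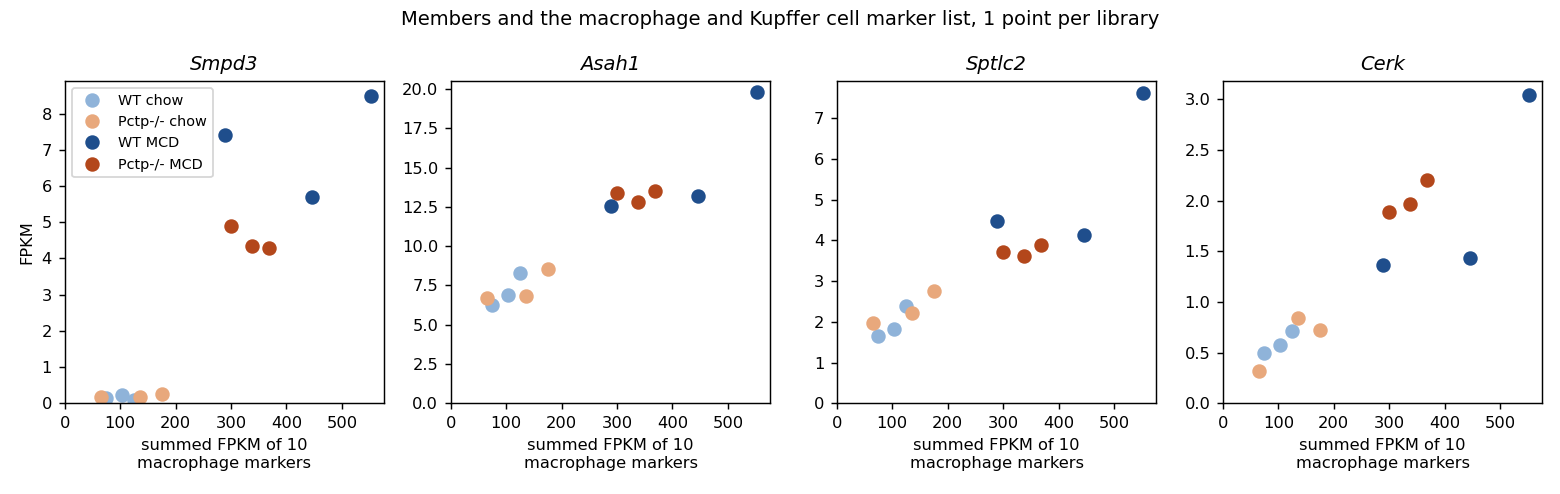
FPKM of Smpd3, Asah1, Sptlc2 and Cerk (y axes) against the summed FPKM of 10 macrophage and Kupffer cell markers (x axis), with 1 point per liver coloured by group. Chow livers lie at marker sums of 64.9 to 175 and MCD livers at 289 to 552, and the WT MCD liver at 552 is the highest for each of these genes, with Smpd3 at 8.48. For other members called higher on MCD in WT, such as Cers2, that liver was the lowest of its group.

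Between genotypes, 0 of 27 members passed the threshold on chow, where 0.136% of all tested genes (17) were called, 0.0562% higher and 0.0802% lower. At an unadjusted p under 0.05 there were 2 of 27, against 870 (6.98%) of all tested genes. Ormdl3, a brake on serine palmitoyltransferase, was the member with the smallest p. The Pctp-/- livers, at 56.9, 50.1 and 58.5 FPKM, were all above the WT livers, at 42.0, 40.6 and 41.2, a difference of 0.41 with a 95% interval of 0.19 to 0.62 (adjusted p = 0.214). Ormdl3 and Pctp are on the same chromosome, 8.58 Mb apart. Cers6 was at -0.55 (95% interval -1.01 to -0.09, adjusted p = 0.595), with overlapping groups. Gba2 was lower in each Pctp-/- liver than in each WT liver, at -0.17 (adjusted p = 0.876). Groups that did not overlap were found for 10.6% of all tested genes in this comparison, 5.17% higher and 5.38% lower.

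For the other members on chow, the 95% intervals, not adjusted for the number of genes, give the uncertainty of each difference. They do not give the size needed for a call, since Ormdl3 at 0.41 was not called. Cers2 was at -0.02 with a 95% interval of -0.25 to 0.21, Degs1 at -0.01 (-0.26 to 0.25), and Smpd1 at 0.06 (-0.17 to 0.29). For Ugcg, Acer2 and Cerk the intervals were wide, the last running from -0.40 to 0.44, with 3 mice per group.

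On MCD, too, 0 of 27 members passed the threshold between genotypes, where 0.818% of all tested genes (102) were called, 0.297% higher and 0.521% lower. An unadjusted p under 0.05 was reached by 7 members against 2026 (16.3%) of all tested genes. These 7 were Sptlc1, Sptlc2, Cers2, Degs1, Smpd3, Acer3 and Sphk2. Each had all 3 Pctp-/- livers below all 3 WT livers, which was so for 21.1% of all tested genes. Asah2 was the only member with all Pctp-/- livers above the WT livers, as were 5.50% of all tested genes, and for either direction the share was 26.6%. The median of the members was -0.08 and that of all tested genes -0.09, the latter moving to -0.0040 under quantile normalization and -0.0068 under median-of-ratios scaling.

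Smpd3 had the largest of these differences at -0.56 (95% interval -0.84 to -0.28, adjusted p = 0.0792), its mean FPKM being 37.3% lower in Pctp-/-. Sptlc1 was at -0.44 (95% interval -0.68 to -0.21, adjusted p = 0.0864) and Cers2 at -0.40 (95% interval -0.63 to -0.18, adjusted p = 0.0962). Without the third WT MCD library, Smpd3 and Sptlc1 passed, with adjusted p of 0.0170 and 0.0481. This was the only 1 of 22 alternatives for Smpd3 and of 23 for Sptlc1 with no minimum fold in which they were called. In the others the adjusted p reached 0.282 and 0.317, and the differences came as near 0 as -0.45 and -0.34. Sptlc2 was at -0.40 (adjusted p = 0.294), which became -0.17 (adjusted p = 0.720) without the first WT MCD library. Degs1 at -0.36, Acer3 at -0.30 and Sphk2 at -0.34 had adjusted p of 0.162, 0.201 and 0.195. Of the marker lists, 0 markers were called in this comparison. Of the 8 marker sums, 4 did not overlap between genotypes, as was so for 26.6% of all tested genes taken singly. Neutrophil sums were lower in Pctp-/-, at 17.1 to 22.5 in WT and 5.67 to 13.2 in Pctp-/-. Endothelial sums were lower too, at 54.8 to 67.7 in WT and 49.0 to 54.1 in Pctp-/-. Hepatocyte sums were higher, at 63793 to 72121 in WT and 77834 to 85512 in Pctp-/-, as were lymphocyte sums, at 1.46 to 1.99 and 2.01 to 2.32. A sum weighs most the markers with the highest FPKM. On the log2 scale, the median difference was 0.095 for the 8 hepatocyte markers and 0.039 for the 2 of 6 lymphocyte markers tested. It was -1.08 for the 2 of 4 neutrophil markers tested and -0.21 for the 6 endothelial markers. The part of these cells in the genotype differences of the members was not tested.

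Members whose diet effect passed in both genotypes included some with small genotype differences on MCD. Ormdl1 was at 0.06 (95% interval -0.17 to 0.29), Sgms1 at -9.22e-05 (-0.24 to 0.24) and Gba2 at 0.00257 (-0.25 to 0.26). Cers6 was at 0.23 (-0.23 to 0.69), with its groups overlapping.

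**Figure D5:**
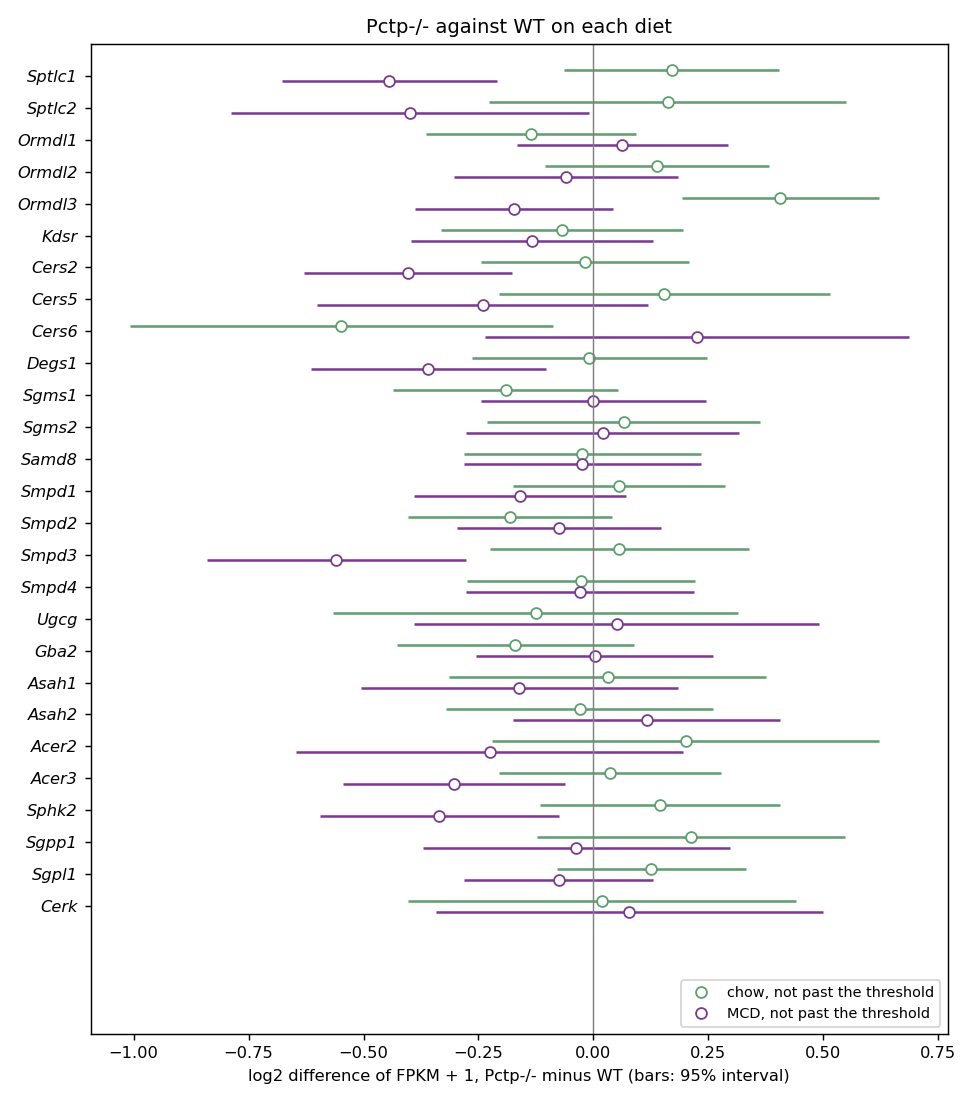
Pctp-/- minus WT difference on the log2(FPKM + 1) scale (x axis) for the 27 tested members (rows), on chow (green) and on MCD (purple), with 95% intervals as bars and open points for differences that did not pass the threshold. No point is filled, Ormdl3 and Cers6 stand apart on chow at 0.41 and -0.55, and Smpd3 and Sptlc1 lie lowest on MCD at -0.56 and -0.44.

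Whether the diet acted differently between the genotypes was tested as the difference of the MCD effects, Pctp-/- minus WT. It passed for 0 of 27 members, where 0.0963% of all tested genes (12) were called, 0.0401% positive and 0.0562% negative, and 7 members had an unadjusted p under 0.05 against 1884 (15.1%) of all. Ormdl3 was at -0.58 (SE 0.14, adjusted p = 0.118), Sptlc1 at -0.61 (adjusted p = 0.128) and Smpd3 at -0.62 (adjusted p = 0.157). Cers6 had a positive difference of 0.77 (adjusted p = 0.248). Sptlc2, Cers2 and Sphk2 were at -0.56, -0.38 and -0.48, with adjusted p of 0.322, 0.245 and 0.208. The calls made in 1 genotype alone are thus not shown to differ between genotypes.

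The rest of the pathway was followed through 45 other genes, 34 of which were tested. In WT, 13 were higher and 8 lower on MCD (61.8%, against 57.0% of all tested genes), and in Pctp-/- 11 were higher and 5 lower (47.1%, against 50.3%), both near the background. None was called between genotypes on either diet or for the difference. Among 6 tested partners of synthesis and ceramide carriers, 4 were higher and 1 lower in each genotype, and of 13 lysosomal genes of glycosphingolipid breakdown, 4 were higher and 3 lower in WT and 5 and 2 in Pctp-/-.

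Among the rises in both genotypes was that of Plpp1, a phosphatase of lipid phosphates (1.57 in WT and 1.16 in Pctp-/-). The largest falls were in S1pr5, a receptor for sphingosine 1-phosphate (-1.40 and -1.35), with B4galt5, which makes lactosylceramide from glucosylceramide, in WT (-1.24) and Glb1, the lysosomal beta-galactosidase, in Pctp-/- (-1.42). The adjusted p of these ranged up to 0.000769, that of B4galt5.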

How the data were processed

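Liver RNA was extracted with miRNeasy columns and sequenced by Novogene, each mouse giving 1 library. FPKM values per Ensembl gene, as deposited by the authors, covered all 12 libraries, with a second table of read totals and percentages in other units. The submitters' notes name the mm10 build, whereas the aligner, the counting tool and the use of strand are not given in the sources used here. No counts were used, so depth enters only through the read totals.

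Genes with a mean of at least 0.5 FPKM were tested on log2(FPKM + 1) with limma 3.58.1 in R 4.3.3 (4 group means, mean-variance trend, Benjamini-Hochberg adjustment over 12466 genes, threshold 0.05, no minimum fold, two-sided). All 12 libraries shared 1 estimate of the spread. Nothing in the labels ties equal replicate numbers to a shared litter or day, so no replicate block was used. The replicates are separate mice. The fit was tested on simulated data. Figures and shares were computed in Python 3.11.15.

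The members and the gene lists were chosen with earlier results of these data known. Members called with an absolute log2 difference of at least 0.5 in any comparison, and the most abundant member of each role, were named with every library's value. Members under the filter were listed with their range, and other pathway genes were named for the 2 largest rises and 2 largest falls called in each comparison, of which 1 gene is not reported here. Further values, of the remaining calls and of members that missed the threshold, were named after they were seen. Positions, transcript GC content, transcript length and shared 75-base windows came from GENCODE M21 (GRCm38), which gave GC content and length for 12401 tested genes, and promoters from RefSeq. The alternatives were other pseudocounts, filters and scalings, a fit of the 6 libraries alone, a replicate block, no trend, a robust fit, a minimum fold, an adjustment of each library for GC content and length, and leaving out each library in turn.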

Additional observations from a re-analysis of the deposited data

Results flagged for a closer look

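Ormdl3 was singled out because its diet effects had opposite directions in the genotypes, with no overlap between the groups in either. On MCD it was higher than on chow in all WT livers (0.34 on the log2 scale, adjusted p = 0.0110) and lower in all Pctp-/- livers (-0.24, adjusted p = 0.0613). The difference of the effects was -0.58 (SE 0.14), with an unadjusted p of 0.00132 and an adjusted p of 0.118 from limma over all tested genes, so it did not pass the threshold. With the correction for GC content and length the effect in Pctp-/- was 0.11 (adjusted p = 0.417), in the same direction as in WT. The fall in Pctp-/- was called without the second Pctp-/- chow library, and without the first or the second WT MCD library.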

How the results depend on the processing

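Of the members' diet calls, that of Smpd2 in WT stood in 11 of 23 settings without a minimum fold, and every other in at least 15 of those that tested it. The GC content of the reads differed between the diets and cannot be told apart from diet, so a correction for it may also remove effects of the diet. The correction for GC content and length turned the direction of Smpd2 (0.032 in WT, 0.15 in Pctp-/-), Ormdl2 (-0.20 and -0.37) and Sphk2 in WT (0.39). In Pctp-/- it also turned Sptlc1 (-0.0024), Ormdl3 (0.11), Samd8 (-0.022) and Ugcg (-0.14). It kept 16 of the 20 calls in WT and added Sphk2, and kept 10 of the 15 in Pctp-/- and added Ormdl2 and Smpd1, with 10 genes called for the knockout on chow. In WT, 15 members and in Pctp-/- 9 members were called under every setting that tested them without a minimum fold. Smpd1 and Sgpl1 in Pctp-/-, just short of the threshold, were each called in 5 of 23. Ormdl2 in Pctp-/-, near 0, also turned with median-of-ratios scaling (-0.040).

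For the knockout on chow, 17 of all tested genes were called, against 10 with no filter, 11 with a mean of at least 5 FPKM and 4 with 6 libraries alone. For the knockout on MCD the count of 102 became 55 with median-of-ratios scaling, 19 with 6 libraries alone and 33 with a minimum absolute log2 fold change of 1. The 7110 genes called for the diet in WT became 4448 at a mean of at least 5 FPKM and 1777 with the minimum fold, and the members 11 and 2 (Sptlc2 and Smpd3), fewer being tested or eligible. In Pctp-/- the 6276 became 4047 and 1343, and the members 9 and 1 (Smpd3). The 12 genes called for the difference became 3 and 4 with pseudocounts of 0.1 and 0.5, 6 with median-of-ratios scaling and 7 without the trend. The cause of the other changes was not tested.

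Leaving out 1 library at a time gave 8 to 34 genes and 0 members for the knockout on chow, 27 to 173 and 0 to 2 for the knockout on MCD, 6171 to 7492 and 18 to 20 for the diet in WT, 5254 to 6516 and 12 to 17 for the diet in Pctp-/-, and 0 to 60 and 0 for the difference. The 2 members gained were Smpd3 and Sptlc1, without the third WT MCD library. Uncalled values near 0 changed sign in such fits: Sgms2 (-0.14 to 0.031 in WT, -0.17 to 0.039 in Pctp-/-), Ugcg (-0.32 to 0.051 and -0.047 to 0.22) and Ormdl2 in Pctp-/- (-0.082 to 0.079).

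Scaling also moved the balance of directions. Higher and lower calls for the knockout on MCD numbered 37 and 65, against 69 and 41 with quantile normalization and 25 and 30 with median-of-ratios scaling. For the diet in WT they were 4300 and 2810, against 3706 and 3478, and 3546 and 3527. For the difference they were 5 and 7, against 13 and 5, and 5 and 1.

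With a replicate block, 20 and 15 members were called for the diet and 0 in the other comparisons, and the genes called rose to 32 for the knockout on chow and 59 for the difference. Libraries with the same number in different groups had deviations correlated between -0.10 and 0.22, over 0.1 in 8 of 18 pairs, against -0.23 to 0.16 and 3 of 36 pairs for different numbers. No label ties equal numbers to a shared litter or day, so they were not taken as a pairing, although same numbers deviated together more often. Whether equal numbers share a factor that the main fit leaves out cannot be told from the labels.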
